A study of Rattus norvegicus with 24 samples.

Results

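The genes described here encode collagen chains, laminin chains and the proteins that join them in the matrix around heart cells. They were taken from the deposited count table as every symbol of the form Col-number-a-number or Lam-letter-number, plus Nid1, Nid2, Hspg2 and Fn1, with a mean of at least 1 CPM (counts scaled to library size) over the 24 libraries. Of 55 matching symbols among the 21767 rows, 44 met the rule, and all 44 were among the 14303 genes tested. The members nearest the limit were Col11a2, at a mean of 1.25 CPM, and Col22a1, at 1.31 CPM, while Col2a1 at 0.45 CPM and Col9a2 at 0.41 CPM fell just outside. Col1a2, Col6a3, Lama3 and Hspg2 have no row under these symbols in the deposited count table and are not analysed here.

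The study sequenced polyA RNA of ventricular myocytes isolated from newborn Sprague-Dawley rats and kept in culture. It asked whether 2 microRNAs, alone or combined, change the response to doxorubicin, an anthracycline cancer drug that damages the heart. Cells were transfected with mimics, which are synthetic double-stranded RNAs that supply a mature microRNA, at 5 nM each. After 48 h the drug was added or left out, for 24 h. The 8 groups of 3 libraries were doxorubicin combined with both mimics, the miR-222-3p mimic, the miR-455-3p mimic or the negative control mimic, and the same 4 mimic conditions with no doxorubicin. The sample protocol gives the doxorubicin dose as 4 uM and the series text names another unit, which is not settled here. The labels name no animal, isolation or day for a replicate, so the p-values below measure only the spread between these libraries, which may be technical.

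Basement membranes are thin sheets of matrix that wrap muscle cells, vessels and epithelia. Laminin trimers, each of an alpha, a beta and a gamma chain, and collagen IV trimers form separate networks in them, and nidogens link the networks. Fibril-forming collagens, fibronectin and collagen VI lie outside these sheets, and in the heart they are made largely by fibroblasts, while cardiomyocytes carry integrin and dystroglycan receptors for laminin.

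The sequences of the mimics themselves were not checked here. The mature forms printed next are those of the rat microRNAs for which the mimics are named. They are shown with the seed, bases 2 to 8, in capitals, as RefSeq gives them for the rat build GRCr8. The seeds differ.
rno-miR-222-3p: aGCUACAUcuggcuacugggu
rno-miR-455-3p: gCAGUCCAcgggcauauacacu
Collagen IV genes stand in head-to-head pairs, and the mimic effects on Col4a3 and Col4a4 are described below. In RefSeq's GRCr8 tables, the start sites of Col4a3 and Col4a4 lie 413 bases apart on opposite strands of chromosome 9, and those of Col4a1 and Col4a2 lie 77 bases apart on chromosome 16. The windows printed next run from 250 bases before to 50 after each start, 300 bases in all, each on its gene's own strand. Capitals mark GC boxes (GGGCGG or CCGCCC) and CCAAT boxes (CCAAT or ATTGG) on either strand.
Col4a3 (chr9:91323740-91324039, plus strand): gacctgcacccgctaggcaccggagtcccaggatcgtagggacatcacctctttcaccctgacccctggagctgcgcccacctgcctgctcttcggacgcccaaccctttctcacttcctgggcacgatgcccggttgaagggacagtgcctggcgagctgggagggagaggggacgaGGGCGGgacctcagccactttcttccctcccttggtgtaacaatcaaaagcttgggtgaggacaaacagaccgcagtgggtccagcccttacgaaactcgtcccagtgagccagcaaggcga
Col4a4 (chr9:91323528-91323827, minus strand): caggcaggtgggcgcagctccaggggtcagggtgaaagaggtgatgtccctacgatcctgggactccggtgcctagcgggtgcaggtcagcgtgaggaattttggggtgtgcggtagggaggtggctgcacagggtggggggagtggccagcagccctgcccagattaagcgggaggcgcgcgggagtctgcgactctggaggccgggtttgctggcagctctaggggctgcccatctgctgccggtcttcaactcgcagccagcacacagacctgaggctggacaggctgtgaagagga
Col4a1 (chr16:84885347-84885646, plus strand): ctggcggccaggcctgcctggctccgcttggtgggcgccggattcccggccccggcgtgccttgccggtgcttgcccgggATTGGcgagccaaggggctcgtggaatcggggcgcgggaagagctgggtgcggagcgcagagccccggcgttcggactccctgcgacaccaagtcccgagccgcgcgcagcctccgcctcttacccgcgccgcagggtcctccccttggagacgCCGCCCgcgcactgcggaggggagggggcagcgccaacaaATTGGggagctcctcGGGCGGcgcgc
Col4a2 (chr16:84885471-84885770, minus strand): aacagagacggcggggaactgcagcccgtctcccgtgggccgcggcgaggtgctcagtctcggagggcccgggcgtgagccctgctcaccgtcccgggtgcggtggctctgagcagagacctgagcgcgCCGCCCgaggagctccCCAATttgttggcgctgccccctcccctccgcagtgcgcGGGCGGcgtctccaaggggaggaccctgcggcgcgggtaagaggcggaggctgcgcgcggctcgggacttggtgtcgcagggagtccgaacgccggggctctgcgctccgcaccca
The Col4a3 window held 1 GC box and no CCAAT box. The Col4a4 window held neither. The Col4a1 and Col4a2 windows, which overlap by 176 bases, held 2 GC boxes each, with 2 CCAAT boxes in the Col4a1 window and 1 in the Col4a2 window. The GC boxes and the CCAAT box of the Col4a2 window lie in the overlap. They are the same bases as boxes of the Col4a1 window, read on the opposite strand. Over 33469 promoter windows of this length, 33.1% held a GC box, 37.5% a CCAAT box and 14.2% a TATA box (TATAAA or TTTATA), which none of these 4 windows held. A match describes letters and shows no binding. Whether counting used strand is not given in the sources used here.

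Totals ran from 17311949 to 25750309 counts a library, with 11469 to 13524 genes at 10 counts or more. The 44 members took 2.55% to 7.92% of all counts, and Col1a1 alone took 0.85% to 3.17%. Cardiomyocyte markers, 11 genes, summed to between 22626.9 and 68305.4 CPM in every library, so the labelled cell type was present throughout. Endothelial markers summed to 15.4 to 68.2 CPM, with Cldn5 at 0 in all libraries and Emcn at most 0.357 CPM, and macrophage and leukocyte markers summed to 8.2 to 26.1 CPM, with Cd163 at most 0.103 CPM and Adgre1 at most 0.155 CPM. Fibroblast markers summed to 428.3 to 3384.1 CPM, with Postn the highest at a mean of 899.999 CPM. These are bulk libraries, in which fewer cells of a type and less RNA per cell cannot be told apart. The 4 libraries with the fewest genes, which were doxorubicin with both mimics replicate 2, doxorubicin with the control mimic replicate 1, both mimics without doxorubicin replicate 3 and the control mimic without doxorubicin replicate 1, had 20.3% to 38.2% of their counts from 13 mitochondrially encoded genes, against 5.54% in the lowest library. Counts of members without these 4 are given beside the counts with all 24. Some libraries within a group were much more alike than others: replicates 1 and 2 of miR-222 without doxorubicin had a chi-square per degree of freedom of 5.79, replicates 1 and 3 of miR-455 without doxorubicin 6.98, and replicates 1 and 2 of both mimics without doxorubicin 7.8. The replicates of doxorubicin with miR-455 lay between 7.81 and 9.79. The other pairs in those groups without doxorubicin lay between 126 and 575. All exceed sampling noise, which does not show that the alike libraries come from separate cultures. Each library was counted on its own, and counts with the alike libraries without doxorubicin summed are given below.

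Doxorubicin raised matrix genes in every mimic condition and lowered none of the 44 at an adjusted p under 0.05. Fibronectin (Fn1) rose in all 4 conditions, and 20 members rose in at least 1. There were 9 such members with both mimics, 9 for miR-222, 4 for miR-455 and 16 for the control mimic. Among all genes tested, the shares that rose were 7.85% under both mimics, 7.76% under miR-222, 9.02% under miR-455 and 15.2% under the control mimic, and the shares that fell were 7.24%, 6.87%, 9.11% and 12.3% in the same order. The members' shares higher were 20.5%, 20.5%, 9.09% and 36.4%, so with miR-455 the members were called about as often as other genes. The median log2 fold change over the 44 members was 0.44 under both mimics, 0.73 under miR-222, 0.28 under miR-455 and 0.95 under the control mimic, while the median over all genes was between -0.07 and 0.02. Tests were edgeR's quasi-likelihood F test with Benjamini-Hochberg adjustment over 14303 genes.

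**Figure D1:**
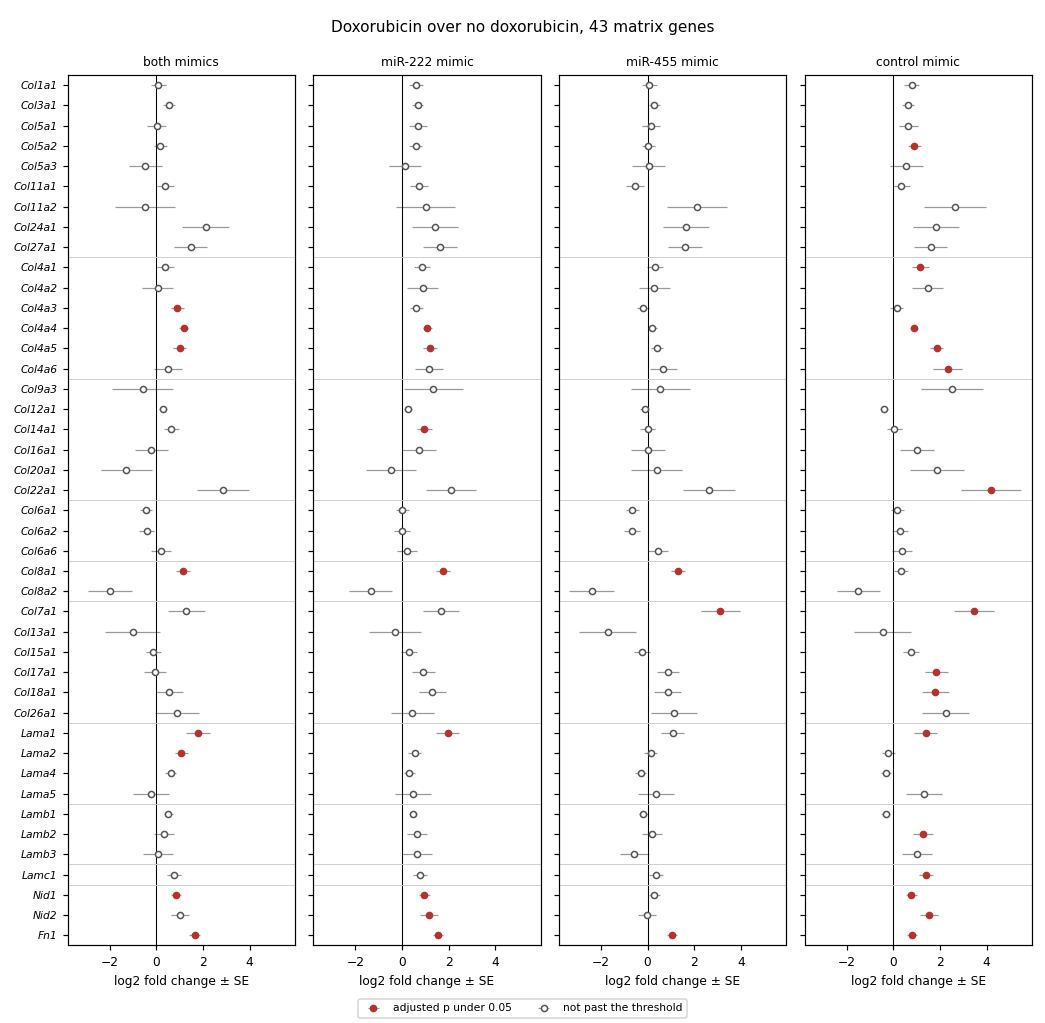
Log2 fold change, doxorubicin over no doxorubicin, of 43 members (rows, by role) with standard errors, in 4 panels by mimic condition; filled points passed an adjusted p of 0.05. Filled points lie right of 0 in every panel, 15 of them with the control mimic and 3 with miR-455.

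Which members were called depended on the libraries and on the fit. Leaving out the 4 libraries with the fewest genes, 14 members rose and 2 fell with both mimics (2276 and 2481 of all genes), 23 rose with miR-222 (2294 of all genes), 10 rose and 4 fell with miR-455 (2501 and 3044), and 22 rose with the control mimic (2733). Those that fell were Col6a1 and Col8a2 with both mimics, and Col13a1, Col6a1, Col6a2 and Col8a2 with miR-455. With the control mimic the count was 10 without doxorubicin replicate 2, 7 without no-doxorubicin replicate 1 and 10 without no-doxorubicin replicate 2. With both mimics it was 4 without no-doxorubicin replicate 1 and 5 without no-doxorubicin replicate 2. In a fit of only the 6 libraries compared, the count was 0 with both mimics, 25 for miR-222, 13 for miR-455 (9 higher, 4 lower) and 5 for the control mimic. Over all genes that fit called 0 higher and 5 lower with both mimics, 2417 and 2368 for miR-222, 2393 and 3026 for miR-455, and 851 and 586 for the control mimic. Summing the alike libraries without doxorubicin, a step chosen after seeing the data, gave 3 with both mimics, 5 for miR-222 and 2 for miR-455. Over all genes it called 553 higher and 454 lower, 502 and 465, and 577 and 688 in the same order. Counts over all genes are not given for the fits that left out a single library.

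Fibronectin, the adhesive glycoprotein that integrins bind and assemble into fibrils, rose in each mimic condition. With both mimics Fn1 had 5212, 4333 and 5602 CPM with doxorubicin, against 1422, 1479 and 1972 CPM without. With miR-222 the levels were 4584, 3400 and 3740 CPM with doxorubicin and 1223, 1233 and 1596 CPM without. The groups did not overlap in either condition. With miR-455 Fn1 had 7728, 6829 and 7048 CPM with doxorubicin, against 3211, 3946 and 3224 CPM without, and with the control mimic it had 5057, 6828 and 4642 CPM with doxorubicin, against 3331, 3399 and 2722 CPM without. Again every doxorubicin library lay above every library without the drug. The log2 fold changes were 1.64 ± 0.22 (SE, adjusted p 5.12e-05) under both mimics, 1.53 ± 0.22 (9.68e-05) under miR-222, 1.06 ± 0.21 (0.0018) under miR-455 and 0.81 ± 0.21 (0.00802) under the control mimic. These 4 calls were kept whichever of the 6 libraries was left out.

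Lamc1, the gamma chain of most laminins, had 4694, 2631 and 3439 CPM with doxorubicin and the control mimic, against 1373, 1166 and 1542 CPM without, with no overlap and a log2 fold change of 1.40 ± 0.31 (adjusted p 0.00202). Its log2 fold changes with both mimics (0.76 ± 0.30), miR-222 (0.77 ± 0.30) and miR-455 (0.34 ± 0.30) did not pass the test. Alpha and beta chains decide where a laminin is found. Of the 4 alpha chains, 2 rose under both mimics, 1 under miR-222, 0 under miR-455 and 1 under the control mimic. Of the 3 beta chains, 1 rose under the control mimic and 0 in the other conditions. The shares of all genes that rose were 7.85%, 7.76%, 9.02% and 15.2%, in the order given for the alpha chains. Lama1, an alpha chain best known from embryonic membranes, was low. It had 6.92, 5.04 and 12.6 CPM with doxorubicin and both mimics, against 1.55, 1.38 and 4.17 CPM without the drug, and the groups did not overlap (log2 fold change 1.79 ± 0.50, adjusted p 0.0182). That call was lost without doxorubicin replicate 3 or no-doxorubicin replicate 1 or 2 (adjusted p up to 0.112). Lama1 also rose with miR-222 (1.95 ± 0.50, adjusted p 0.0112), a call lost without doxorubicin replicate 1 or no-doxorubicin replicate 1 (adjusted p up to 0.0628), and with the control mimic (1.39 ± 0.49, adjusted p 0.0413), a call lost without doxorubicin replicate 2 or 3 or no-doxorubicin replicate 1 or 3 (adjusted p up to 0.171). Leaving out the 4 libraries with the fewest genes gave 1.19 ± 0.47 (adjusted p 0.0558) there. Lama2, the main alpha chain of muscle basement membranes, had 500, 1281 and 654 CPM with doxorubicin and both mimics, against 334, 315 and 509 CPM without. The groups overlapped, since 500 CPM lies below 509 CPM, and the log2 fold change of 1.07 ± 0.28 (adjusted p 0.013) was lost without doxorubicin replicate 2, no-doxorubicin replicate 1 or no-doxorubicin replicate 2 (adjusted p up to 0.11). Lamb2, a beta chain of synaptic and muscle laminins, had 332, 630 and 602 CPM with doxorubicin and the control mimic, against 126, 204 and 315 CPM without (1.28 ± 0.42, adjusted p 0.0293), a call lost without doxorubicin replicate 2 or 3 or no-doxorubicin replicate 1 or 2 (adjusted p up to 0.168). Lama4 and Lamb1 passed in none of the 4 conditions, with log2 fold changes of -0.31 to 0.61 and -0.33 to 0.51.

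Of the 6 collagen IV chains, 4 rose with the control mimic. There, Col4a5 had 570, 1084 and 880 CPM with doxorubicin, against 202, 200 and 298 CPM without (log2 fold change 1.86 ± 0.28, adjusted p 7.02e-05). Col4a4 had 1003, 1335 and 897 CPM with doxorubicin, against 504, 541 and 700 CPM without (0.89 ± 0.19, adjusted p 0.00148). Col4a6, whose chain pairs with that of Col4a5 in smooth muscle and skin, had 20.9, 54.1 and 47.9 CPM, against 3.75, 7.89 and 12.6 CPM (2.34 ± 0.62, adjusted p 0.00801). None of these 3 groups of libraries overlapped its counterpart, and the Col4a6 call was lost without no-doxorubicin replicate 1 (adjusted p up to 0.0525). Col4a1, a chain of nearly all basement membranes, had 3989, 8639 and 6962 CPM with doxorubicin, against 2037, 2547 and 4176 CPM without, and passed with overlap (1.16 ± 0.35, adjusted p 0.0174), a call lost without doxorubicin replicate 2 or no-doxorubicin replicate 1 or 2 (adjusted p up to 0.119). Its partner Col4a2 had 960, 4880 and 4317 CPM, against 372, 1052 and 2256 CPM, and did not pass (1.47 ± 0.68, adjusted p 0.118). With the 4 libraries of fewest genes left out, Col4a2 rose by 1.40 ± 0.39 (adjusted p 0.0102).

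Col4a4 and Col4a5 also rose with doxorubicin under miR-222 and under both mimics. Under both mimics Col4a4 had 201, 238 and 161 CPM with doxorubicin, against 87.6, 97.2 and 82.5 CPM without (1.17 ± 0.19, adjusted p 0.00031), and under miR-222 it had 240, 274 and 225 CPM, against 114, 118 and 118 CPM (1.08 ± 0.19, adjusted p 0.000625). Col4a5 under miR-222 had 742, 650 and 593 CPM with doxorubicin, against 285, 285 and 297 CPM without (1.2 ± 0.28, adjusted p 0.0058). Under both mimics its log2 fold change was 1.01 ± 0.28 (adjusted p 0.0167), a call lost without doxorubicin replicate 1 or no-doxorubicin replicate 3 (adjusted p up to 0.0623). Drug and no-drug libraries did not overlap for these chains. Under miR-455 Col4a4 had 413, 382 and 373 CPM with doxorubicin, against 318, 336 and 364 CPM without, which did not overlap and did not pass (0.20 ± 0.19, adjusted p 0.525). Col4a3 passed under both mimics, where it had 49.7, 52.9 and 57.5 CPM with doxorubicin, against 24, 26.3 and 35.3 CPM without (0.90 ± 0.28, adjusted p 0.0311), and that call was lost without doxorubicin replicate 2 or 3 or no-doxorubicin replicate 1 or 2 (adjusted p up to 0.119).

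**Figure D2:**
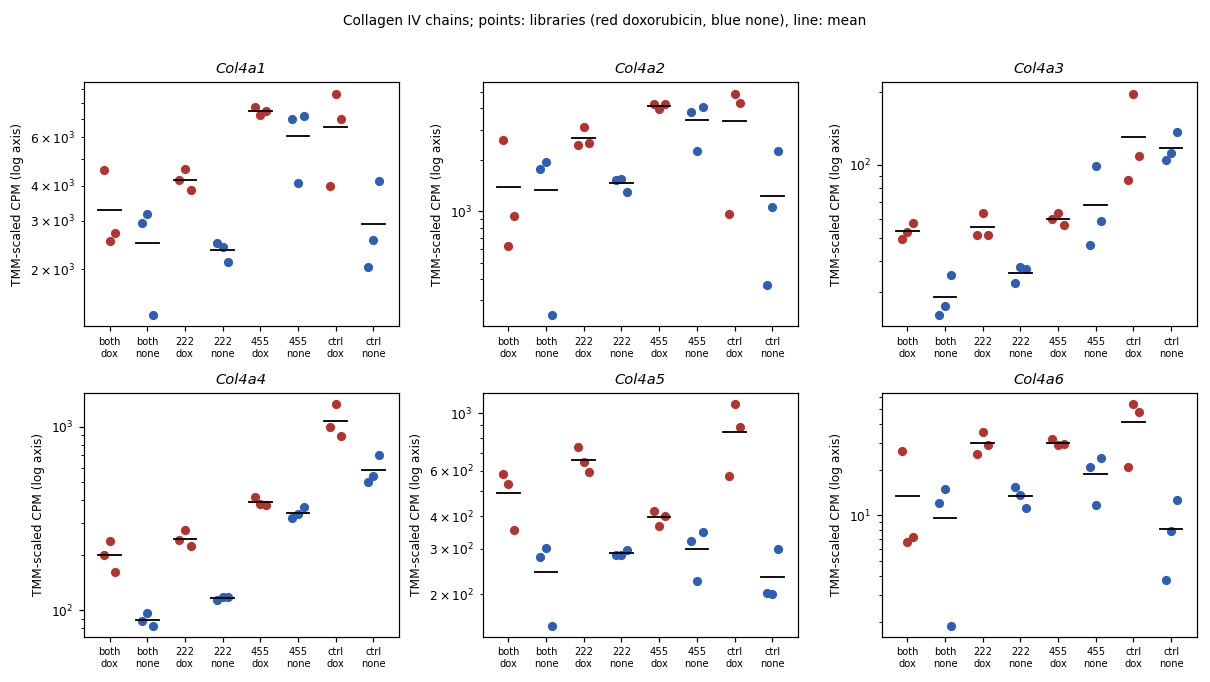
TMM-scaled CPM (log axis) of the 6 collagen IV chains in each library, by mimic condition with doxorubicin (red) left of no doxorubicin (blue); lines are means of 3. Col4a4 lies between 82.5 and 238 CPM with both mimics and between 504 and 1335 CPM with the control mimic.

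Nidogens bridge laminin and collagen IV. Nid1 had 448, 310 and 404 CPM with doxorubicin and both mimics, against 220, 228 and 203 CPM without the drug. With miR-222 it had 508, 337 and 361 CPM, against 181, 188 and 249 CPM. With the control mimic it had 800, 1500 and 934 CPM, against 560, 710 and 624 CPM. None of these groups overlapped, and the log2 fold changes were 0.84 ± 0.23 (adjusted p 0.0171), 0.96 ± 0.23 (0.0072) and 0.77 ± 0.23 (0.0162). The call with both mimics was lost without doxorubicin replicate 1 or 3 or no-doxorubicin replicate 1 (adjusted p up to 0.0651), that with miR-222 lost without doxorubicin replicate 1 (adjusted p up to 0.0575) and that with the control mimic lost without doxorubicin replicate 2 or no-doxorubicin replicate 1 or 3 (adjusted p up to 0.148). Under miR-455 Nid1 gave 0.28 ± 0.23 and did not pass. Nid2 rose with the control mimic, at 290, 223 and 285 CPM with doxorubicin against 64, 88.9 and 123 CPM without (1.53 ± 0.38, adjusted p 0.00534), and with miR-222 (1.17 ± 0.38, adjusted p 0.0422), a call lost without doxorubicin replicate 2 or 3 or no-doxorubicin replicate 1, 2 or 3 (adjusted p up to 0.174). Under miR-455 Nid2 gave -0.03 ± 0.37.

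Among the other collagens, Col8a1, a chain of short-chain networks in vessel walls, passed with each active mimic condition and not with the control mimic. With miR-455 it had 382, 347 and 347 CPM with doxorubicin, against 113, 187 and 139 CPM without (1.30 ± 0.30, adjusted p 0.00505). With miR-222 it had 147, 83.7 and 91.1 CPM, against 26.7, 26.2 and 41.2 CPM (1.77 ± 0.30, adjusted p 0.00055), and with both mimics 120, 81.9 and 97.7 CPM, against 39.6, 36.3 and 57.9 CPM (1.16 ± 0.30, adjusted p 0.0121), the last call being lost without no-doxorubicin replicate 1 or 2 (adjusted p up to 0.06). With the control mimic the groups overlapped, at 77.2, 178 and 99.8 CPM with doxorubicin and 93.1, 97.8 and 91.3 CPM without (0.33 ± 0.30, adjusted p 0.435). The difference between those responses is tested further on. Col7a1, which forms anchoring fibrils under epithelia, had 127, 118 and 140 CPM with doxorubicin and miR-455, against 12.9, 18.9 and 12.4 CPM without (3.12 ± 0.83, adjusted p 0.0126), a call lost without no-doxorubicin replicate 1 or 3 (adjusted p up to 0.062). With the control mimic it had 10.7, 185 and 84.8 CPM, against 3.15, 6.66 and 15.7 CPM (3.46 ± 0.85, adjusted p 0.00474), and the groups overlapped, with doxorubicin replicate 1 below no-doxorubicin replicate 3. Col17a1, a hemidesmosome collagen, had 11.2, 10 and 8.52 CPM with doxorubicin and the control mimic, against 1.96, 2.02 and 4.29 CPM (1.84 ± 0.49, adjusted p 0.00833), a call lost without no-doxorubicin replicate 1 or 2 (adjusted p up to 0.0536). Col22a1, a collagen of muscle-tendon junctions, was near the detection limit at 0, 1.24 and 2.18 CPM, against 0, 0 and 0.179 CPM, so its fitted log2 fold change of 4.20 ± 1.29 (adjusted p 0.0195) rests on few counts. That call was lost without doxorubicin replicate 3 or no-doxorubicin replicate 1 or 2 (adjusted p up to 0.0816). Col18a1 rose with the control mimic (1.80 ± 0.59, adjusted p 0.0293), lost without doxorubicin replicate 2 or 3 or no-doxorubicin replicate 1 or 2 (adjusted p up to 0.146). Col5a2 rose there too (0.90 ± 0.27, adjusted p 0.0164), lost without doxorubicin replicate 2 or no-doxorubicin replicate 1 or 2 (adjusted p up to 0.12). Col14a1 rose with miR-222 (0.95 ± 0.32, adjusted p 0.04997), lost without doxorubicin replicate 1, 2 or 3 or no-doxorubicin replicate 1 or 2 (adjusted p up to 0.251).

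Of the 9 fibril-forming collagens, Col5a2 passed with the control mimic as given above and none passed in the other conditions. Of all genes 15.2% rose with the control mimic and 7.76% to 9.02% in the other conditions, so these counts are close to those shares. The median log2 fold changes of the 9 were 0.17, 0.68, 0.14 and 0.79 with both mimics, miR-222, miR-455 and the control mimic. Col1a1, the main collagen of scar and interstitium, had 14856, 37437 and 25723 CPM with doxorubicin and the control mimic, against 10726, 12831 and 21483 CPM without, and the groups overlapped (0.79 ± 0.32, adjusted p 0.0722). Col3a1, its fibril partner, had 6592, 12410 and 8127 CPM, against 5396, 5063 and 7123 CPM (0.63 ± 0.25, adjusted p 0.0658). Both passed when the 4 libraries with the fewest genes were left out, at 0.81 ± 0.25 (adjusted p 0.0184) and 0.68 ± 0.24 (adjusted p 0.032). Collagen VI chains Col6a1 and Col6a2 passed in none of the 4 conditions.

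Markers of several cell types moved with these changes. The 7 mesothelial and epicardial markers summed to 85.5 to 151 CPM in doxorubicin libraries and to 36.8 to 56.2 CPM without the drug. Of the 7 tested, 3, 2, 2 and 2 rose with both mimics, miR-222, miR-455 and the control mimic, and 0, 0, 0 and 1 fell. Upk1b, a uroplakin of mesothelium, rose in all 4 conditions (3.11 to 4.04), with 3.33 ± 0.42 (adjusted p 1.05e-05) for the control mimic. Krt19 rose with both mimics, miR-222 and miR-455 (2.92 to 3.27) and Msln with the control mimic (1.52 ± 0.42). Wt1 passed with both mimics only (0.92 ± 0.30, adjusted p 0.0423). Lrrn4 fell with the control mimic (-3.80 ± 1.04, adjusted p 0.01). Fibroblast markers, 12 genes, summed to 1382.2 to 3247.6 CPM with doxorubicin and the control mimic and to 1389.4 to 3384.1 CPM with the control mimic alone. With miR-222 they summed to 694.8 to 1686.4 CPM with doxorubicin and to 428.3 to 1051 CPM without. Postn, the highest of the 12 at a mean of 899.999 CPM, weighs most in these sums, which can hide changes in the others. Of the 12 tested, 2, 3, 2 and 3 rose with both mimics, miR-222, miR-455 and the control mimic, and 0, 0, 0 and 1 fell. With the control mimic Fbln1 (1.18 ± 0.2), Dpt (2.15 ± 0.39) and Dcn (0.74 ± 0.25) rose and Pdgfra (-1.0 ± 0.31) fell. Cardiomyocyte markers summed to 36165.5 to 39474.9 CPM with doxorubicin and the control mimic, against 25420.7 to 29768.7 CPM without the drug. Of the 11 tested, 2, 2, 2 and 3 rose with both mimics, miR-222, miR-455 and the control mimic, and 1, 1, 4 and 1 fell. Nkx2-5 fell in all 4 conditions (-4.56 to -5.39), and Ryr2 (-2.14 ± 0.48) and Myh7 (-2.11 ± 0.53) fell with miR-455. Single markers of other types moved as well. The endothelial receptor Kdr fell in all 4 conditions (-2.41 to -4.66) and Cd14 of macrophages rose in all 4 (1.57 to 2.14). Kdr and Cd14 were the only called genes of 7 endothelial and 5 macrophage and leukocyte markers tested. With the control mimic the median log2 fold changes of those lists were 1.32 and -0.18. Cnn1 of smooth muscle rose with both mimics (1.32 ± 0.33), miR-222 (1.48 ± 0.33) and the control mimic (1.90 ± 0.33). Of 9 tested smooth muscle and pericyte markers, 2, 2, 0 and 3 rose with both mimics, miR-222, miR-455 and the control mimic. Beside all these marker counts, 7.85%, 7.76%, 9.02% and 15.2% of all genes rose in the same order. The shares of all genes that fell were 7.24%, 6.87%, 9.11% and 12.3%. Cspg4 fell with the control mimic (-2.76 ± 0.77) and Acta2 with miR-455 (-2.18 ± 0.68). The part of these cell types in the matrix changes was not tested.

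**Figure D3:**
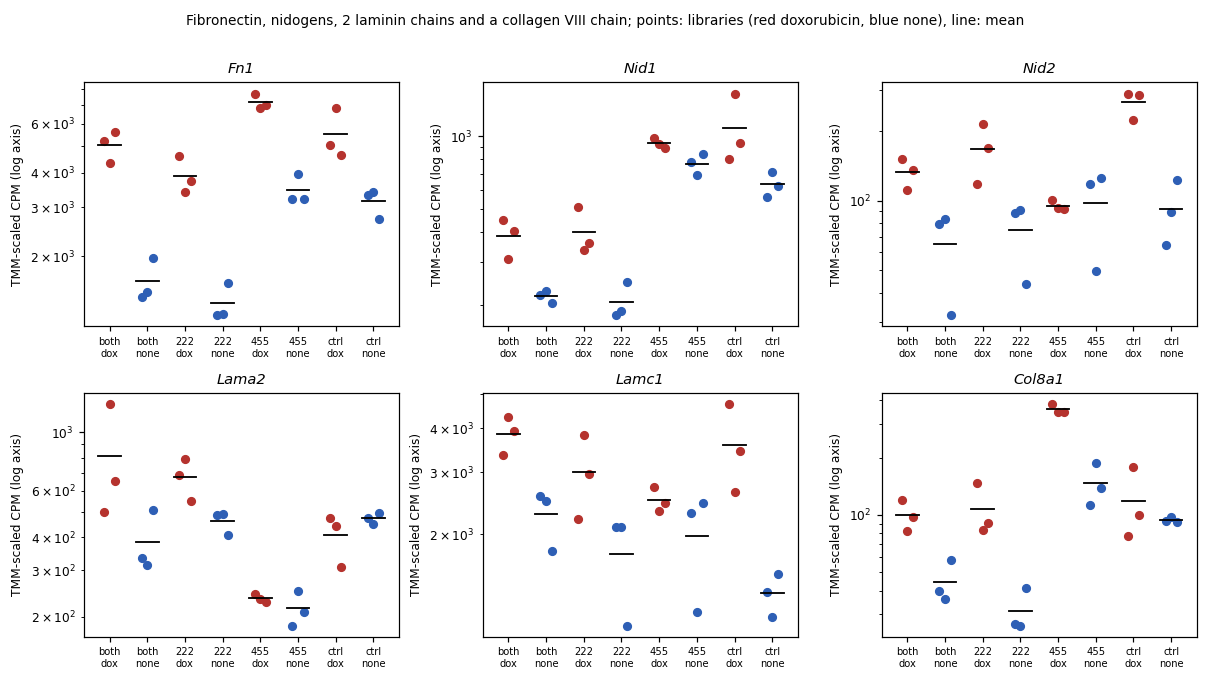
TMM-scaled CPM (log axis) of Fn1, Nid1, Nid2, Lama2, Lamc1 and Col8a1 in each library, by mimic condition with doxorubicin (red) left of no doxorubicin (blue); lines are means of 3. With the control mimic, Lamc1 starts at 2631 CPM with doxorubicin, above the highest library without the drug at 1542 CPM.

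The question of whether a mimic changes the response to doxorubicin was put to each gene by subtracting its doxorubicin effect under the control mimic from that under another mimic. No member passed edgeR's test for both mimics, miR-222 or miR-455. Over all genes 8 (0.0559%), 7 (0.0489%) and 0 (0%) passed. At an unadjusted p under 0.05, 5 members were higher and 3 lower for both mimics, 4 higher and 0 lower for miR-222, and 1 higher and 8 lower for miR-455. At that threshold 2002, 1404 and 1523 of the 14303 genes passed in either direction, so the 4 members for miR-222 are close to the share of all genes. DESeq2 called 0, 0 and 2 members, and of all genes it called 124 higher and 247 lower for both mimics, 63 and 142 for miR-222, and 30 and 105 for miR-455. The nearest to the threshold were Lama2 for both mimics (1.29 ± 0.39, adjusted p 0.172) and Col8a1 for miR-222 (1.44 ± 0.42, adjusted p 0.225), and Col4a5 for miR-455 gave -1.45 ± 0.39 (adjusted p 0.224). The larger Col8a1 changes seen above were thus not shown to differ from the control mimic's. Without the 4 libraries with the fewest genes, 7 members passed for both mimics: Fn1 (1.05 ± 0.32) and Lama2 (1.23 ± 0.31) responded more, and Col17a1, Col4a5, Col4a6, Col5a2 and Col7a1 less (796 and 793 of all genes in each direction). Leaving out no-doxorubicin replicate 3 of both mimics alone gave 6, of which 5 were higher. Col4a5 passed for miR-455 without the 4 libraries (-1.55 ± 0.32, adjusted p 0.0427), and 1 member passed without no-doxorubicin miR-455 replicate 2.

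Set against the control mimic, Col4a4 fell in all 6 comparisons and Nid1 in the 4 that hold miR-222. Without doxorubicin 8 members fell and 0 rose with both mimics, 8 fell and 1 rose for miR-222, and 2 fell and 1 rose for miR-455. The shares of all genes that fell were 3.39%, 4.47% and 2.25%, and the shares that rose 3.67%, 4.5% and 2.47%, in the same order. Under doxorubicin 6 members fell and 1 rose with each of both mimics, miR-222 and miR-455. The shares of all genes that fell there were 2.78%, 2.36% and 1.85%, and the shares that rose 2.78%, 1.59% and 0.657%. The members' share lower was 18.2% for both mimics and for miR-222 without doxorubicin, 4.55% for miR-455 without it, and 13.6% for each under it. The median log2 fold change over members under doxorubicin was -0.83 with both mimics, -0.35 with miR-222 and -0.23 with miR-455, with medians over all genes of -0.06 to 0.02. The comparisons within each drug condition share their control mimic libraries, so they are not independent of each other.

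**Figure D4:**
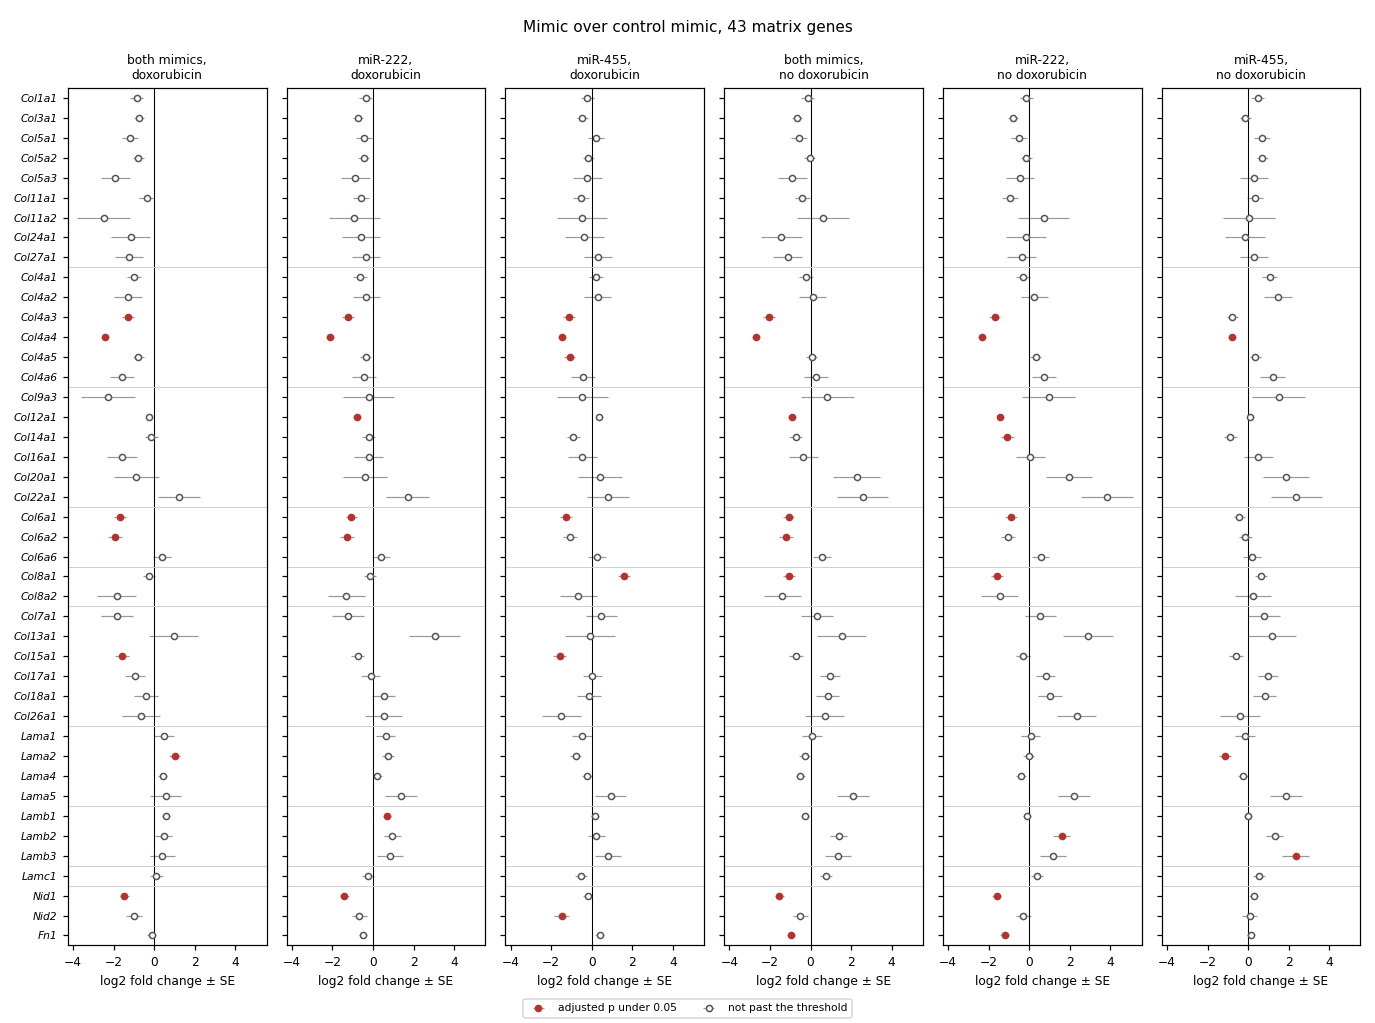
Log2 fold change, mimic over control mimic, of 43 members (rows, by role) with standard errors, under doxorubicin (left 3 panels) and without it (right 3 panels); filled points passed an adjusted p of 0.05. Col4a4 is filled and left of 0 in all 6 panels, from -0.78 to -2.71.

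These counts also moved with the libraries used. Leaving out the 4 libraries with the fewest genes, 12 members fell and 6 rose with both mimics without doxorubicin (1901 and 1813 of all genes), 12 fell and 4 rose with miR-222 (1455 and 1377), and 5 fell and 2 rose with miR-455 (983 and 1011). Under doxorubicin 17 fell with both mimics (1018 of all genes), 13 fell and 3 rose with miR-222 (673 and 538), and 7 fell and 1 rose with miR-455 (515 and 212). For both mimics without doxorubicin, leaving out mimic replicate 1 or 2 gave 4 members and leaving out mimic replicate 3 gave 13. For miR-455 without doxorubicin, the count was 0 without mimic replicate 1 or 3 or control replicate 2, 1 without control replicate 1, 5 without control replicate 3 and 7 without mimic replicate 2. For both mimics under doxorubicin, it was 13 without mimic replicate 1 or control replicate 1 and 4 without control replicate 2. For miR-222 under doxorubicin, it was 3, 4 and 2 without mimic replicate 1, 2 and 3 and 3 without control replicate 2, and for miR-455 it was 3, 2 and 2 without mimic replicate 1, 2 and 3 and 2 without control replicate 2. Fits of only the 6 libraries compared called 0 members for both mimics in either drug condition and for miR-455 without doxorubicin, 2 for miR-455 under it, and 1 for miR-222 under it. Over all genes these fits called 0 without doxorubicin and 2 under it for both mimics, 2 for miR-455 without doxorubicin, 27 higher and 117 lower for miR-455 under it, and 22 and 54 for miR-222 under it, so counts of 0 members stand beside almost no calls over all genes. Summing the alike libraries gave 3 and 0 for both mimics and miR-455 without doxorubicin and 4 each for miR-222 and miR-455 under it. Over all genes it called 65 higher and 69 lower for both mimics and 4 and 3 for miR-455 without doxorubicin. Under the drug it called 152 and 214 for miR-222 and 55 and 171 for miR-455. Counts over all genes are not given for the fits that left out a single library.

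Col4a4 and Col4a3 encode chains of one collagen IV trimer, best known from the glomerulus, where their loss causes Alport syndrome. Without doxorubicin Col4a4 had 87.6, 97.2 and 82.5 CPM with both mimics, 114, 118 and 118 CPM with miR-222 and 318, 336 and 364 CPM with miR-455, against 504, 541 and 700 CPM with the control mimic. Every mimic library lay below every control library, and the log2 fold changes were -2.71 ± 0.20 (adjusted p 1.8e-07), -2.32 ± 0.19 (2.21e-06) and -0.78 ± 0.19 (0.0267). Under doxorubicin it had 201, 238 and 161 CPM with both mimics, 240, 274 and 225 CPM with miR-222 and 413, 382 and 373 CPM with miR-455, against 1003, 1335 and 897 CPM with the control mimic. The groups were again apart, at -2.43 ± 0.20 (adjusted p 2.04e-07), -2.13 ± 0.19 (2.12e-06) and -1.47 ± 0.19 (0.000146). The miR-455 call without doxorubicin was lost without mimic replicate 1 or 3 or control replicate 2 or 3 (adjusted p up to 0.148), and the other 5 calls were kept in every such fit. Whether Col4a4 messages carry a site for either seed was not tested here.

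Col4a3 fell in 5 of the 6 comparisons. Without doxorubicin it had 24, 26.3 and 35.3 CPM with both mimics and 32.7, 38 and 37.1 CPM with miR-222, against 104, 112 and 137 CPM with the control mimic, with log2 fold changes of -2.05 ± 0.28 (adjusted p 0.000256) and -1.71 ± 0.28 (0.0011). With miR-455 it had 47, 99.3 and 58.9 CPM and did not pass (-0.78 ± 0.27, adjusted p 0.0906). Under doxorubicin it had 49.7, 52.9 and 57.5 CPM with both mimics, 51.5, 63 and 51.2 CPM with miR-222 and 60.1, 63.1 and 56.6 CPM with miR-455, against 86.9, 197 and 109 CPM with the control mimic. No mimic library reached the lowest control library, and the log2 fold changes were -1.29 ± 0.28 (adjusted p 0.00694), -1.24 ± 0.28 (0.0121) and -1.13 ± 0.28 (0.0296). The call with both mimics was lost without control replicate 2 (adjusted p up to 0.0689), that with miR-222 lost without mimic replicate 1 or 3 or control replicate 2 (adjusted p up to 0.0887) and that with miR-455 lost without mimic replicate 1, 2 or 3 or control replicate 2 (adjusted p up to 0.216). Neither Col4a1 nor Col4a2 passed in any of the 6 comparisons, with log2 fold changes of -1.0 to 1.06 and -1.29 to 1.47. With the 4 libraries of fewest genes left out, Col4a1 and Col4a2 fell with both mimics under doxorubicin (-1.09 ± 0.29, adjusted p 0.0199, and -1.38 ± 0.39, adjusted p 0.0293), Col4a1 fell with miR-222 under it (-0.89 ± 0.26, adjusted p 0.0401), and Col4a1 rose with miR-455 without it (0.82 ± 0.27, adjusted p 0.0495). Col4a5 fell with miR-455 under doxorubicin, at 419, 368 and 402 CPM, against 570, 1084 and 880 CPM with the control mimic (-1.09 ± 0.28, adjusted p 0.0354), a call lost without mimic replicate 1, 2 or 3 or control replicate 2 or 3 (adjusted p up to 0.19).

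Nid1 fell wherever miR-222 was present. Without doxorubicin it had 220, 228 and 203 CPM with both mimics and 181, 188 and 249 CPM with miR-222, against 560, 710 and 624 CPM with the control mimic (-1.54 ± 0.23, adjusted p 0.000725, and -1.61 ± 0.23, adjusted p 0.00046). Under doxorubicin it had 448, 310 and 404 CPM with both mimics and 508, 337 and 361 CPM with miR-222, against 800, 1500 and 934 CPM with the control mimic (-1.48 ± 0.23, adjusted p 0.000529, and -1.42 ± 0.23, adjusted p 0.000934). No groups overlapped, and all 4 calls were kept whichever library was left out. With miR-455 alone Nid1 had 982, 926 and 889 CPM under doxorubicin and 780, 688 and 840 CPM without it, overlapping its controls in both (-0.21 ± 0.23 and 0.28 ± 0.23). Nid2 fell with miR-455 under doxorubicin, at 101, 93 and 91.8 CPM, against 290, 223 and 285 CPM with the control mimic (-1.48 ± 0.38, adjusted p 0.0395). The groups stood apart, but the call was lost in all 6 fits that left out a library (adjusted p up to 0.181).

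Fibronectin passed with both mimics and with miR-222 where the drug was absent. Without doxorubicin Fn1 had 1422, 1479 and 1972 CPM with both mimics and 1223, 1233 and 1596 CPM with miR-222, against 3331, 3399 and 2722 CPM with the control mimic, and the groups did not overlap (-0.96 ± 0.21, adjusted p 0.0115, and -1.22 ± 0.21, adjusted p 0.00199). The call with both mimics was lost without mimic replicate 1 or 2 (adjusted p up to 0.0626). Under doxorubicin the log2 fold changes were -0.13 ± 0.21 with both mimics and -0.50 ± 0.21 with miR-222, and neither passed. The test of that difference is the one on the doxorubicin response, which gave 0.83 ± 0.30 (adjusted p 0.229) and 0.73 ± 0.30 (adjusted p 0.416) for Fn1, so the drug conditions were not shown to differ.

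Collagen VI is a microfibril collagen that borders muscle basement membranes, and its chain Col6a1 fell with each mimic condition under doxorubicin. It had 400, 386 and 347 CPM with both mimics, 587, 673 and 492 CPM with miR-222 and 528, 493 and 498 CPM with miR-455, against 782, 1794 and 1091 CPM with the control mimic. None of the mimic libraries reached the lowest control library, and the log2 fold changes were -1.69 ± 0.28 (adjusted p 0.000874), -1.07 ± 0.28 (0.0328) and -1.27 ± 0.28 (0.0145). Its partner Col6a2 had 456, 370 and 381 CPM with both mimics and 699, 659 and 508 CPM with miR-222, against 841, 2464 and 1291 CPM (-1.93 ± 0.35, adjusted p 0.00172, and -1.30 ± 0.34, adjusted p 0.0341). With miR-455 Col6a2 gave -1.08 ± 0.34 (adjusted p 0.119), and -1.39 ± 0.26 (adjusted p 0.0029) without the 4 libraries with the fewest genes. Without doxorubicin Col6a1 fell with both mimics (-1.08 ± 0.28, adjusted p 0.0238) and miR-222 (-0.91 ± 0.28, adjusted p 0.0437) and Col6a2 with both mimics (-1.23 ± 0.34, adjusted p 0.0344). The calls with both mimics under doxorubicin were kept whichever library was left out. Under doxorubicin the miR-222 calls of Col6a1 and Col6a2 and the miR-455 call of Col6a1 were each lost without mimic replicate 1, 2 or 3 or control replicate 2 (adjusted p up to 0.187, 0.213 and 0.101). Without doxorubicin the Col6a1 call with both mimics was lost without mimic replicate 1 or 2 or control replicate 3 (adjusted p up to 0.0941) and that with miR-222 lost without mimic replicate 1, 2 or 3 or control replicate 2 or 3 (adjusted p up to 0.134), and the Col6a2 call lost without mimic replicate 1, 2 or 3 or control replicate 2 or 3 (adjusted p up to 0.123).

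Of the 6 collagens of fibril surfaces, 2 fell with miR-222 without doxorubicin and 1 under it, and 0 rose, with median log2 fold changes over the 6 of 0.49 and -0.22. Col16a1 (0.04 ± 0.72), Col20a1 (1.94 ± 1.13), Col22a1 (3.82 ± 1.27) and Col9a3 (0.95 ± 1.30) did not pass with miR-222 without doxorubicin. Col12a1, which is induced in strained and healing tissue, had 282, 290 and 379 CPM with both mimics and 231, 216 and 217 CPM with miR-222, against 680, 537 and 577 CPM with the control mimic without doxorubicin (-0.92 ± 0.18, adjusted p 0.00513, and -1.43 ± 0.18, adjusted p 0.00014). Under doxorubicin it had 287, 282 and 227 CPM with miR-222, against 461, 533 and 379 CPM (-0.79 ± 0.18, adjusted p 0.0142), a call lost without mimic replicate 3 or control replicate 2 (adjusted p up to 0.116). These groups did not overlap. Col14a1 had 112, 111 and 219 CPM with miR-222 without doxorubicin, against 304, 363 and 283 CPM (-1.10 ± 0.32, adjusted p 0.0367), a call lost without mimic replicate 1 or 2 or control replicate 1 or 2 (adjusted p up to 0.161). Col8a1 moved in opposite directions in different comparisons. It fell without doxorubicin with both mimics, at 39.6, 36.3 and 57.9 CPM, and with miR-222, at 26.7, 26.2 and 41.2 CPM, against 93.1, 97.8 and 91.3 CPM (-1.08 ± 0.30, adjusted p 0.0351, and -1.58 ± 0.30, adjusted p 0.00389), and the call with both mimics was lost without mimic replicate 1 or 2 or control replicate 1, 2 or 3 (adjusted p up to 0.144). It rose with miR-455 under doxorubicin, at 382, 347 and 347 CPM, against 77.2, 178 and 99.8 CPM (1.60 ± 0.30, adjusted p 0.00473). Col15a1, which binds basement membranes to fibrils in heart and muscle, had 33.8, 19.7 and 21 CPM with both mimics and 30.3, 21.6 and 23.3 CPM with miR-455 under doxorubicin, against 43.3, 107 and 75.7 CPM (-1.60 ± 0.34, adjusted p 0.00612, and -1.59 ± 0.34, adjusted p 0.0115), the first call lost without control replicate 2 (adjusted p up to 0.0521) and the other lost without mimic replicate 2 or 3 or control replicate 2 (adjusted p up to 0.0883). Col1a1 passed in none of the 6 comparisons and Col3a1 came nearest with miR-222 without doxorubicin (-0.79 ± 0.25, adjusted p 0.0521).

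Of the 5 members that rose with a mimic, 4 were laminin chains and the other Col8a1. The members' share higher was 0% with both mimics without doxorubicin and 2.27% in each other comparison. The shares of all genes that rose without doxorubicin were 3.67% with both mimics, 4.5% with miR-222 and 2.47% with miR-455. Under it they were 2.78%, 1.59% and 0.657%. Lamb2 had 757, 747 and 432 CPM with miR-222 without doxorubicin, against 126, 204 and 315 CPM with the control mimic (1.59 ± 0.43, adjusted p 0.0257). Lamb3, a beta chain of epithelial laminin, had 478, 154 and 475 CPM with miR-455 without doxorubicin, against 34.1, 59.9 and 123 CPM (2.35 ± 0.66, adjusted p 0.0469). Lamb1, the beta chain of most laminins, had 654, 692 and 534 CPM with miR-222 under doxorubicin, against 362, 461 and 334 CPM (0.70 ± 0.19, adjusted p 0.0397). The groups were apart for all 3. The Lamb2 call was lost without mimic replicate 1 or 2 or control replicate 1 or 2 (adjusted p up to 0.147), the Lamb3 call lost without mimic replicate 1 or 3 or control replicate 1 or 2 (adjusted p up to 0.219) and the Lamb1 call lost without mimic replicate 1, 2 or 3 or control replicate 1 or 3 (adjusted p up to 0.171). Lama2 fell with miR-455 without doxorubicin, at 185, 252 and 209 CPM, against 473, 448 and 496 CPM (-1.13 ± 0.28, adjusted p 0.0299). It rose with both mimics under doxorubicin, at 500, 1281 and 654 CPM, against 473, 440 and 308 CPM (1.00 ± 0.28, adjusted p 0.0394), and gave 0.64 ± 0.22 (adjusted p 0.0644) when the 4 libraries of fewest genes were left out. The fall was lost without mimic replicate 1 or 3 or control replicate 1 or 2 (adjusted p up to 0.156) and the rise lost without mimic replicate 2 or control replicate 2 or 3 (adjusted p up to 0.31). Lama4 and Lamc1 passed in none of the 6.

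Genes known as miR-222 targets were checked once. Without doxorubicin Ets1 fell with miR-222 (-1.68 ± 0.25, adjusted p 0.000543), as did Hipk1 (-0.75 ± 0.15, adjusted p 0.00609) and Hmbox1 (-1.55 ± 0.46, adjusted p 0.0402), while Cdkn1b gave 0.12 ± 0.33. Ets1 also fell with miR-455 alone (-1.09 ± 0.25, adjusted p 0.0224). Under doxorubicin Ets1 did not pass with both mimics (-0.14 ± 0.25, adjusted p 0.818) or miR-222 (-0.43 ± 0.25, adjusted p 0.419), while with miR-222 Hipk1 (-0.69 ± 0.15, adjusted p 0.0121) and Hmbox1 (-1.72 ± 0.47, adjusted p 0.0421) fell. Markers of other cell types moved beside the collagen changes. Cardiomyocyte markers summed to 42745.9 to 56763.5 CPM with miR-455 without doxorubicin, against 25420.7 to 29768.7 CPM with the control mimic. Of the 11 tested there, 2 rose, Myl2 (1.69 ± 0.22) and Myl3 (1.58 ± 0.40), and 0 fell, against 2.47% and 2.25% of all genes. Myh7 fell without doxorubicin with both mimics (-2.08 ± 0.53) and miR-222 (-2.09 ± 0.53), and with miR-222 under doxorubicin (-2.04 ± 0.53). It was the only one of the 11 called there, and the median log2 fold changes of the 11 were 0.04, 0.24 and -0.28. Kdr fell with each mimic condition under doxorubicin (-2.72 to -3.17) and was the only one called there of 7 endothelial markers tested. Without doxorubicin Vwf, of the same 7, rose with miR-222 (2.77 ± 0.74). Fibroblast markers summed to 429.5 to 1714.1 CPM with both mimics, 428.3 to 1051 CPM with miR-222 and 919.2 to 1543.9 CPM with miR-455 without doxorubicin, against 1389.4 to 3384.1 CPM with the control mimic, and Thy1 (-2.57 ± 0.56), Lum (-2.20 ± 0.53) and Postn (-2.62 ± 0.76) fell with miR-222. Of the 12 fibroblast markers 3 fell with both mimics, 3 with miR-222 and 2 with miR-455 without doxorubicin. The shares of all genes that fell there were 3.39%, 4.47% and 2.25%. The part of these cell types in the matrix changes was not tested.

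Whether the mimics together did more than the sum of each alone was tested as a contrast of 4 groups. No member passed edgeR's test under doxorubicin or without it, against 6 (0.0419%) and 2 (0.014%) of all genes. At an unadjusted p under 0.05, 6 members were higher and 1 lower than the sum under doxorubicin and 2 were higher and 3 lower without it, and 1644 and 2636 of the 14303 genes passed at that threshold. DESeq2 called 2 members and 0 members, against 147 genes higher and 42 lower under doxorubicin and 169 and 80 without it. Col4a4 came nearest under doxorubicin: its fall with both mimics was smaller than the sum of the single effects by 1.17 ± 0.26 (adjusted p 0.112). Col8a1 gave -1.70 ± 0.42 (adjusted p 0.151) there, and Col14a1 gave 1.23 ± 0.45 (adjusted p 0.216) without doxorubicin. Without control replicate 2 under doxorubicin 1 member passed.

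Enzymes and receptors that serve these proteins were counted beside them. The shares of all genes that rose with doxorubicin, given above, were 7.85% under both mimics, 7.76% under miR-222, 9.02% under miR-455 and 15.2% under the control mimic. Of 19 tested enzymes that fold and modify collagen, 5 rose with doxorubicin under both mimics, 6 under miR-222, 3 under miR-455 (with Colgalt2 falling) and 8 under the control mimic, among them the prolyl hydroxylase subunit P4hb (1.57 ± 0.27), the collagen galactosyltransferase Colgalt1 (1.56 ± 0.27) and P3h1 (0.80 ± 0.18). Of 12 tested genes for procollagen processing and crosslinking, 1, 4, 0 and 4 rose in the same order, including Bmp1 (1.54 ± 0.35), which cleaves procollagen ends, and Loxl2 (1.22 ± 0.32) with the control mimic. Of 22 matrix receptors, 9, 12, 4 and 6 rose with the drug and 0 fell. The hyaluronan receptor Cd44 (1.96 ± 0.18), the hemidesmosome integrin Itgb4 (3.87 ± 0.75) and the laminin receptor Bcam (2.48 ± 0.50) rose with the control mimic. Of 18 other basement membrane proteins, 4, 5, 4 and 6 rose, with Sparc (1.53 ± 0.21), Agrn (2.00 ± 0.45) and Fbln1 (1.18 ± 0.20) among those with the control mimic, where Hmcn1 fell (-1.68 ± 0.36). Of 21 fibril-associated proteins, 6, 5, 4 and 4 rose, Efemp1 in all 4 conditions (2.32 to 3.87), and Fbn2 fell with the control mimic (-2.03 ± 0.37). Of 18 genes of TGF-beta signalling, the main pathway that raises collagen, 4 rose and 0 fell under both mimics, 3 and 1 under miR-222, 2 and 2 under miR-455 and 3 and 4 under the control mimic, where its reporter gene Ccn2 fell (-2.85 ± 0.63) and Tgfbi rose (1.35 ± 0.36). With the control mimic the 3 of 18 that rose are close to the share of all genes.

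Summed over the same lists, called genes fell more often than they rose with a mimic where doxorubicin was absent. The shares of all genes that fell there were 3.39% with both mimics, 4.47% for miR-222 and 2.25% for miR-455, and 3.67%, 4.5% and 2.47% rose in the same order. Without doxorubicin, 7 of 21 fibril-associated genes fell with both mimics, 10 with miR-222 and 2 with miR-455, and none rose. Thbs2 (-1.75 ± 0.24), Bgn (-1.16 ± 0.21) and Fbn1 (-1.62 ± 0.31), the fibrillin of elastic microfibrils, were among those with miR-222. Of 22 receptors 5, 6 and 4 fell, with the beta-1 integrin Itgb1 at -2.01 ± 0.39 with both mimics and -1.89 ± 0.39 with miR-455, and the collagen receptor Itga11 at -1.48 ± 0.25 with miR-222. Of the 18 other basement membrane proteins 4, 2 and 3 fell, with Frem1 at -3.65 ± 0.47, -3.39 ± 0.47 and -1.78 ± 0.44, and 1, 2 and 0 rose. Ntn4 rose with both mimics (1.21 ± 0.34) and miR-222 (1.48 ± 0.34), and Agrn with miR-222 (1.64 ± 0.44). The prolyl hydroxylase P4ha3 fell with both mimics (-1.30 ± 0.22) and miR-222 (-1.48 ± 0.22), and these with Plod2 for miR-222 (-0.99 ± 0.27) were the only folding enzymes called. No processing gene was called, and of the TGF-beta list Tgfbr3 rose and Ltbp1 fell with both mimics and with miR-222. Under doxorubicin Itgb1 fell with both mimics (-1.96 ± 0.39), miR-222 (-1.42 ± 0.38) and miR-455 (-2.25 ± 0.39), and Cd44 with both mimics (-1.36 ± 0.17) and miR-222 (-1.73 ± 0.18). The laminin-binding integrin Itga6 rose with both mimics (1.21 ± 0.20) and miR-222 (0.91 ± 0.20), the procollagen protease Adamts3 with both mimics (1.68 ± 0.36) and Tgfb3 with miR-222 (1.58 ± 0.43).

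Members differed in how tightly replicates held together. The standard deviation of log2 CPM within groups was under 0.5 for 22 members and at least 1 for 8. It was lowest for Col12a1 (0.17), Col4a4 (0.19), Lamb1 (0.19) and Fn1 (0.21) among those named here, and 1.14 for Lama5, an epithelial and vascular alpha chain, which was called in no comparison. Lama5 had 1228, 1225 and 104 CPM in both mimics without doxorubicin and 55, 120 and 424 CPM in the control mimic without it. Of the 44 members, 26 were called in at least 1 of the 10 comparisons of groups and 18 in none, and 9 both rose with doxorubicin and fell with a mimic. Paired chains did not keep a fixed ratio. The ratio of Col4a2 to Col4a1 counts had a median of 0.565 and ran from 0.18 to 0.675 over 24 libraries. It was at most 0.345 in the 5 libraries whose mitochondrially encoded share was 20.2% or more. The ratio of Col4a3 to Col4a4 ran from 0.0867 to 0.427, a 4.93-fold span against 3.75-fold for Col4a2 to Col4a1. That of Col6a2 to Col6a1 ran from 0.951 to 1.55, a 1.63-fold span. The part of the mitochondrial share in the comparisons above was not tested beyond leaving libraries out.

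**Figure D5:**
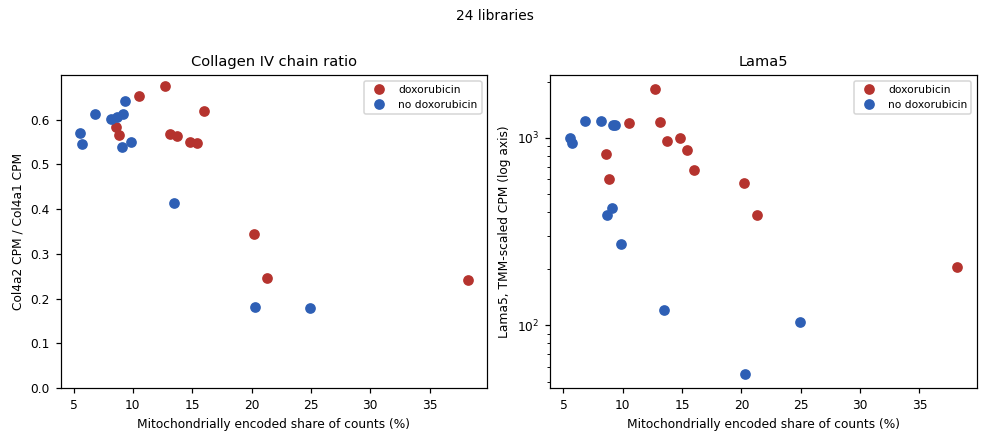
Ratio of Col4a2 to Col4a1 CPM (left) and Lama5 TMM-scaled CPM on a log axis (right) against the mitochondrially encoded share of counts (%), one point per library, red with doxorubicin and blue without. The 5 libraries at or above 20.2% have Col4a2 to Col4a1 ratios of at most 0.345.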

How the data were processed

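The values deposited by the authors are expected counts per gene symbol for 24 libraries, 7.35% of them not whole, and they were rounded here to whole counts. The submitters' processing notes name Salmon, DESeq2 and the build Rnor_6.0, with no version or role, so the authors' counting steps are otherwise not stated. Groups follow the labels. In R 4.3.3, edgeR 4.0.16 was run with filterByExpr by group (14303 genes kept), TMM scaling and a means model of the 8 groups. Its quasi-likelihood F test was adjusted by Benjamini-Hochberg over all genes tested, and an adjusted p under 0.05 was called. The standard error is the log2 fold change divided by the square root of F. Levels are TMM-scaled CPM, and within-group spreads used log2 of CPM plus 0.5. CPM is not scaled for gene length, so levels are not compared between genes. Totals of 17311949 to 25750309 counts set the precision of low genes. The fit was also run on simulated counts, drawn with no alike libraries and no differences in mitochondrial share. That run therefore does not show how the fit behaves with these features of the real libraries.

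The members and the gene lists were chosen with earlier results of these data known. The rule for named members took those called, up to the 6 with the largest absolute log2 fold change per comparison and direction, and always Fn1, Col1a1, Col3a1, Col4a1, Col4a2, Lama2, Lama4, Lamb1, Lamc1, Nid1 and Nid2. Other called members, and Lama5 and the members named for their spread or ratio, were added after their values were seen. From each other list up to 4 called genes per comparison with the smallest p were eligible. Markers of smooth muscle and pericytes summed to 3894 to 7571.9 CPM, mostly Des, and those of Schwann cells to 5.7 to 16.5 CPM. Alternatives were DESeq2 1.42.0 as test or scaling, 2 other low-count filters, a replicate block, only the compared groups, each library left out, the 4 libraries with the fewest genes left out, and alike libraries summed. Of 44 members 33 had a RefSeq promoter entry. A single member is counted in the totals and is otherwise not reported here.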

Additional observations from a re-analysis of the deposited data

How the results depend on the processing

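Of 79 calls of members, 19 were kept under every alternative and none reversed in direction. DESeq2 size factors kept 78, the DESeq2 test 79, a filter of 1 CPM in 3 libraries 79, no low-count filter 71 and leaving out the 4 libraries with the fewest genes 77. Scaling by DESeq2 size factors moved the median of all genes by at most 0.042. A fit of only the compared groups kept 26 and lost 52. The counts of members called by the main fit are those of the report, and each alternative count follows. With only the compared groups, doxorubicin gave 0 under both mimics, 25 under miR-222, 13 under miR-455 and 5 under the control mimic; without doxorubicin both mimics and miR-455 gave 0 each; under it both mimics gave 0, miR-222 1 and miR-455 2. Over all genes those fits called from 0 genes (both mimics without doxorubicin) to 2393 higher and 3026 lower (doxorubicin with miR-455). Without the 4 libraries, doxorubicin gave 16 under both mimics, 23 under miR-222 and 14 under miR-455; without the drug both mimics gave 18, miR-222 16 and miR-455 7; under it both mimics gave 17 and miR-222 16; the change in response was 7 for both mimics and 1 for miR-455. DESeq2 gave 14 for doxorubicin with both mimics (1650 higher and 1354 lower of all genes). It gave 6 for miR-455 without doxorubicin (996 and 922) and 14 for both mimics under it (765 and 767). It gave 2 each for the miR-455 change in response and for both mimics beyond the sum under doxorubicin. Summing the alike libraries, an alternative chosen after seeing the data, kept 46 calls and lost 33. It gave 3, 5 and 2 for doxorubicin with both mimics, miR-222 and miR-455, 3 and 0 for both mimics and miR-455 without the drug, and 4 each for miR-222 and miR-455 under it. The counts over all genes in those fits are given in the report. With a replicate block 66 calls were kept and 13 lost, and the count for miR-222 under doxorubicin fell to 4 (174 higher and 257 lower of all genes). Over 30 same-numbered pairs the correlation of deviations from group means ran from -0.581 to 0.453, with 6 above 0.1. With 3 libraries a group, that correlation cannot show whether same-numbered libraries share an isolation or day, which the labels do not name. Leaving out 1 library at a time kept 327 and lost 147 of such fits, with counts of 4 to 10, 6 to 8, 3 to 4 and 7 to 22 for doxorubicin with both mimics, miR-222, miR-455 and the control mimic. The ranges were 4 to 13, 6 to 10 and 0 to 7 for both mimics, miR-222 and miR-455 without doxorubicin, and 4 to 13, 2 to 6 and 2 to 7 under it. For the change in response they were 0 to 6 with both mimics, 0 to 0 with miR-222 and 0 to 1 with miR-455, and beyond the sum 0 to 1 under doxorubicin and 0 to 0 without it. Counts over all genes are not given for the fits that left out a single library. The causes of these shifts were not tested. Depth limits members near 1 CPM, such as Col22a1 and Col11a2.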
